A study of Homo sapiens with 16 samples.

Results

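The Rag GTPases, the folliculin complex and the MiT/TFE transcription factors were taken as 10 genes by their symbols in the count files: RRAGA, RRAGB, RRAGC, RRAGD, FLCN, FNIP1, FNIP2, TFEB, TFE3 and MITF. All 10 were among the 62714 genes listed, and each passed the filter on low counts in every comparison. Their RNA was measured by RNA-seq of ribosomal RNA depleted total RNA in 16 libraries, from 4 human lymphoma cell lines of B-cell origin. Each line carried a CRISPR-Cas9 vector with a guide pool against CREBBP, a histone acetyltransferase gene, or against the AAVS integration site as the control. Each targeted pool was left untreated (baseline) or received IL4 at 10 ng/ml for a period of 4 h. The groups, named AAVS or CREBBP with baseline or IL4, therefore held 4 libraries each, and all of them carried the vector. The cells were kept as pools and not as clones, although the genotype of the CREBBP pools is labelled -/-. Line 1 was SU-DHL4 and line 4 was DOHH2. The labels named the remaining lines OCI-LY7 and SU-DHL10 in conflicting order, so these are called line 2 and line 3.

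Rag GTPases sit on the lysosome as heterodimers of RagA or RagB with RagC or RagD, and they recruit mTORC1, the growth-promoting kinase complex, when amino acids are plentiful. Folliculin, bound to FNIP1 or FNIP2, acts as a GTPase activating protein for RagC and RagD. This in turn lets mTORC1 phosphorylate TFEB, TFE3 and MITF, which holds these factors in the cytoplasm, whereas the unphosphorylated factors enter the nucleus and switch on lysosome and autophagy genes through CLEAR elements, sites built on the E-box letters CACGTG. RRAGD, FLCN and FNIP2 are themselves known targets of MiT/TFE factors in several cell types. IL4 signals through JAK kinases and STAT6, and CREBBP is a coactivator that STAT6 can recruit.

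RefSeq promoter windows, from 250 bases before to 50 bases after a transcript start on GRCh38.p14, were matched by symbol for 8 of the 10 genes, with 13 windows in all. Those of FNIP2, FNIP1, RRAGB and RRAGC are shown here. FNIP2 is shown because edgeR called it between AAVS IL4 and AAVS baseline, though not for IL4 in the CREBBP pools. The others are shown because they were the windows that held the E-box CACGTG. All are written 5′ to 3′ in the direction of the gene, and capitals mark CACGTG.

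FNIP2, chr4:158768776-158769075, plus strand: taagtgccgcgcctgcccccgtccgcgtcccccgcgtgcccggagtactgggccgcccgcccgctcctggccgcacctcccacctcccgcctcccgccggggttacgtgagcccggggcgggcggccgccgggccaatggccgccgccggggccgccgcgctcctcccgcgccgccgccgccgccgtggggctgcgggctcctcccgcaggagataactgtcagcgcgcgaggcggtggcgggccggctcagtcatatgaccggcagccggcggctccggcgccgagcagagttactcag

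FNIP1, chr5:131796968-131797267, minus strand: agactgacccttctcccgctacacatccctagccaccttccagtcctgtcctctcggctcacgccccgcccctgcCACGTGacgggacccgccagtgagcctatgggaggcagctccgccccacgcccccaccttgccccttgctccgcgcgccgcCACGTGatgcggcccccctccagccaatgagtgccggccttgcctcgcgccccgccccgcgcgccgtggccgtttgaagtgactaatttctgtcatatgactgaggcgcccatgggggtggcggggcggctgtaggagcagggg

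RRAGB, chrX:55717499-55717798, plus strand: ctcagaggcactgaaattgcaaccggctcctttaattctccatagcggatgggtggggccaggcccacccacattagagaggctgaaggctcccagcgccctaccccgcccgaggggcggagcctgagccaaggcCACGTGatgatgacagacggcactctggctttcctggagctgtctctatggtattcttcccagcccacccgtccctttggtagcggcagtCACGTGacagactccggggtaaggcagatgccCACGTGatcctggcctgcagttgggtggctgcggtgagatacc

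RRAGC, chr1:38859723-38860022, minus strand: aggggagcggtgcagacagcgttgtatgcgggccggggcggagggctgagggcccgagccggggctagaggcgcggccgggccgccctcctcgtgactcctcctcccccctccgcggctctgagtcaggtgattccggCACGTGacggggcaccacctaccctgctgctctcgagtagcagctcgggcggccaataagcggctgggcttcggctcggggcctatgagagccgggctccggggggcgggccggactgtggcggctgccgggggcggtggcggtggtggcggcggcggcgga

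The FNIP2 window held no CACGTG, and neither did its second window nor those of FLCN, TFEB, TFE3 and MITF. RRAGA and RRAGD had no window and were not searched. FNIP1 had 2 matches, which began 175 and 94 bases before the start. RRAGC had 1, at 112 bases before the start. RRAGB had 3, at 115 and 25 bases before the start and at base 8 of the transcript. CACGTG reads the same on both strands. It was found in 7.26% of 35116 RefSeq windows of this length. The lack of a match says only that these letters were not in a window.

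Library totals ranged from 19649735 to 61981976 counts, and values are given as CPM, the count of a gene scaled to the library total. CPM, changes of single lines and lack of overlap used these totals without the TMM normalization factors of the fits. A small change of a line can therefore have another direction on the scale of the fitted values. Reads of the targeted gene did not separate the pools. CREBBP RNA lay between 205 and 360 CPM at AAVS baseline and between 187 and 278 CPM at CREBBP baseline, with a log2 fold change of -0.11 (SE 0.21, edgeR adjusted p = 0.851). With IL4 it lay between 190 and 379 CPM in the AAVS pools and between 69.9 and 245 CPM in the CREBBP pools (log2 fold change -0.51, SE 0.23, edgeR adjusted p = 0.218). RNA level does not measure an edit of the coding sequence. The paper reported loss of CREBBP protein in the targeted pools by immunoblotting. The IL4 target CISH lay between 9.25 and 55.6 CPM with IL4 in the AAVS pools and reached at most 3.83 CPM in the other 12 libraries, and NFIL3, another, between 45.8 and 142 CPM against at most 33.3. FCER2, also an IL4 target, lay between 17.5 and 212 CPM against at most 21.3. The AAVS IL4 libraries also stood apart in ways that their labels do not give. IGHM read 951, 711, 1711 and 138 CPM in lines 1 to 4 and at most 0.0696 CPM in the other 12 libraries, IGHD and VIM were also higher without overlap, and CD44 lay between 67.5 and 941 CPM against at most 0.472. Of 10 T-cell markers, 8 were higher without overlap (summed level 20.6 to 130 CPM, against 9.66 to 48.9 in the other groups), with CD2 and ICOS at 0 in all of the other 12 libraries. Of 8 myeloid markers only LYZ did so, with CD163, S100A8 and S100A9 at or below 0.0838 CPM in every library. Of 8 stromal and endothelial markers only COL3A1 did so, and CDH5 was at 0 throughout. The 6 B-cell markers summed to between 2613 and 5137 CPM in all 16. The part of these differences in any result below was not tested. They touch the 3 comparisons that use the AAVS IL4 libraries, and the IL4 response of the CREBBP pools and the baseline comparison do not use them. Lines 1, 3 and 4 were closer to each other than to line 2. In the 3 groups other than AAVS IL4, between 1 and 17 genes parted any pair of them (at least 10 CPM in one and under 0.5 in the other), against 149 to 235 genes between any of them and line 2. In AAVS IL4 these numbers were 9 to 68 and 78 to 106 genes. With 1 library per line and group, the p-values measure how much the differences between groups vary over the lines. This spread includes the noise of single libraries, since no library was repeated within a line by the labels. The tests count the 4 lines as independent, and whether lines 1, 3 and 4 are so was not tested.

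The members were expressed at very different levels. Per kilobase of exon, counted over all annotated exons, TFEB was the highest with a median of 12.3 CPM per kb over the 16 libraries (range 5.63 to 20.5). RRAGA followed with 9.75 (6.46 to 21.1) and FNIP1 with 9.29 (4.36 to 17.1). RRAGC had a median of 6.06 (2.75 to 9.09), TFE3 of 5.10 (2.13 to 13.1), RRAGD of 3.13 (1.29 to 10.7), FLCN of 2.34 (1.59 to 7.37) and RRAGB of 1.82 CPM per kb (1.26 to 3.39). The ranges of neighbours in this order overlapped, so single steps within these 8 genes were smaller than the spread over libraries. FNIP2, with a median of 0.0850 CPM per kb (0.0162 to 1.42), and MITF, with 0.0627 (0 to 0.215), stayed below the lowest library of every other member, except for FNIP2 in 1 library (line 3 of AAVS IL4). With the length of the canonical transcript in place of all exons, RRAGC moved to second place and FLCN passed RRAGD. The MiT/TFE RNA of these lines was therefore mostly TFEB and TFE3, with MITF at 0 to 79 counts per library.

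**Figure D1:**
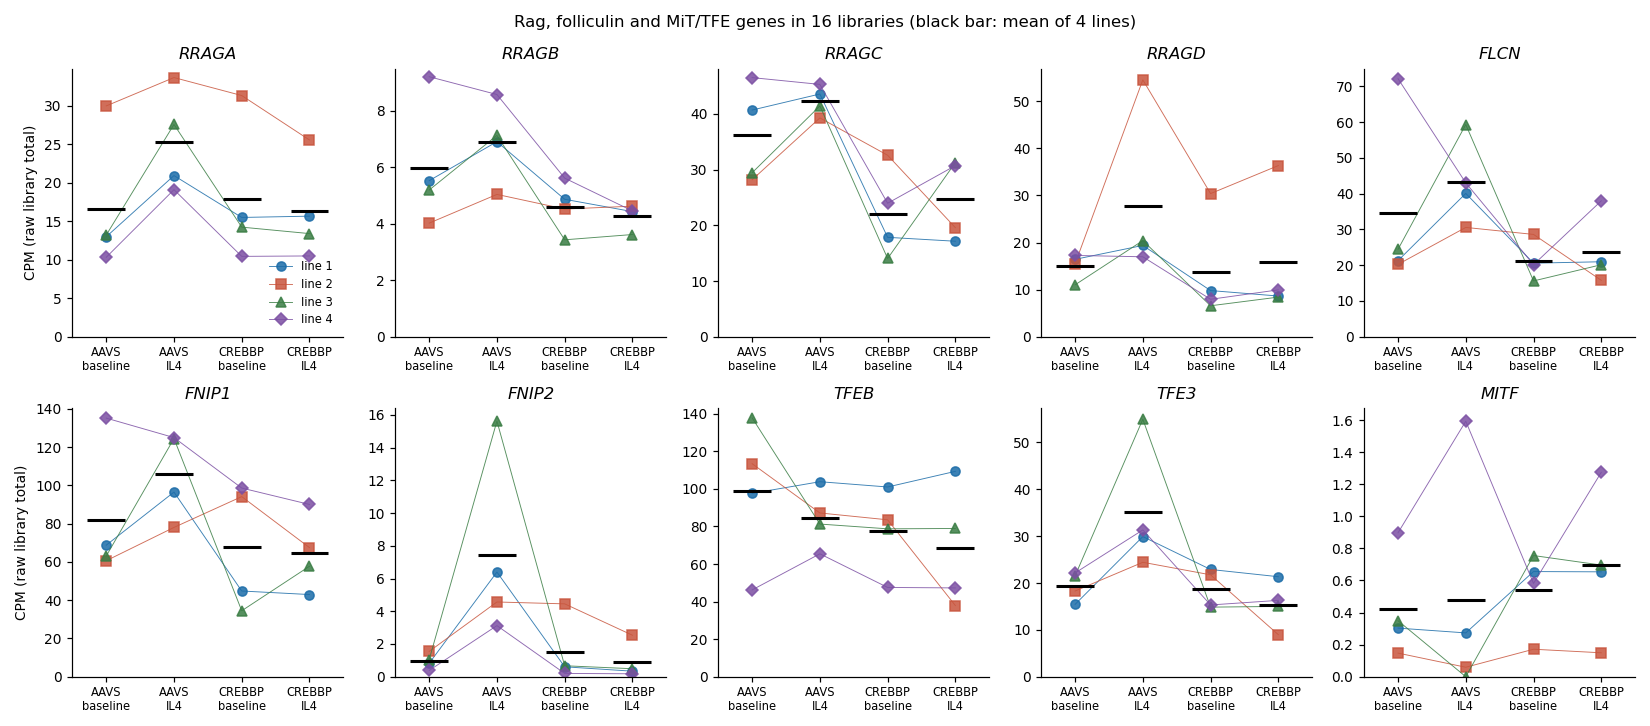
Level of each member gene in CPM, counts scaled to the library total (vertical axis, starting at 0, own scale per gene) in the 4 groups, with 1 marker shape and colour per line, thin lines joining libraries of a line, and a black bar at the group mean. FNIP2 and TFE3 are higher in AAVS IL4 than at AAVS baseline in each line, RRAGD and RRAGA are highest in line 2 in nearly every group, and MITF stays at or below 1.59 CPM.

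Across the 5 comparisons, FNIP2 was the one member that passed the test. With IL4 in the AAVS pools, 1 of the 10 members had an adjusted p under 0.05, where 2.4% of 20310 genes tested did so. In the difference in IL4 response between CREBBP and AAVS pools it was again 1 of 10, where 0.638% of 21932 genes did so. Between CREBBP and AAVS pools with IL4 no member was called by edgeR, where 4.39% of 19581 genes were called. There, 3 members (RRAGD, FNIP2 and TFE3) had an unadjusted p under 0.05 (25.6% of all genes), DESeq2 called 2 (FNIP2 and TFE3), where it called 21.2% of all genes, and limma-voom called 1, where it called 10.4%. With IL4 in the CREBBP pools 0 members were called by edgeR, as were 0% of 18282 genes, with 0 members at an unadjusted p under 0.05 (2.75% of all genes) and 0 called by DESeq2 and limma-voom. Between CREBBP and AAVS pools at baseline 0 members were called by edgeR, as were 0% of 18936 genes. RRAGC was the 1 member with an unadjusted p under 0.05 there (12.8% of all genes), and DESeq2 and limma-voom called 0.

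**Figure D2:**
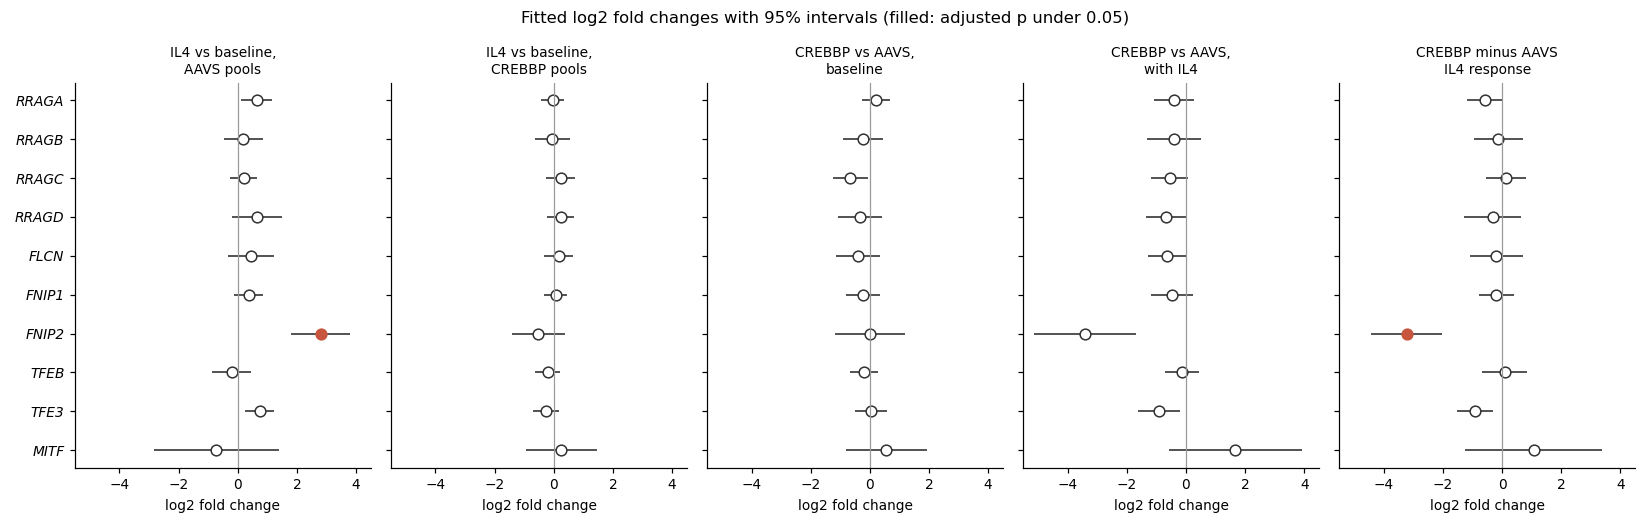
Fitted log2 fold change of each member (horizontal axis) with its 95% confidence interval in the 5 comparisons, where the last panel is the IL4 response of the CREBBP pools minus that of the AAVS pools. Filled circles mark an adjusted p under 0.05, which FNIP2 reached in the first panel (2.80) and the last (-3.22).

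In the AAVS pools, 8 of 10 members had a log2 fold change above 0 with IL4, with a median of 0.41, beside 51% of all genes and a median of 0.01. In the CREBBP pools 5 of 10 were above 0, with a median of 0.01, beside 45.5% and -0.04 for all genes. CREBBP pools against AAVS pools had 4 of 10 members above 0 at baseline, with a median of -0.21, beside 47.8% and -0.03 for all genes. With IL4 it was 1 of 10, with a median of -0.51, beside 47.8% and -0.05. Since these comparisons share libraries, their counts are not independent of each other. Of the 4 comparisons between groups, the one with a median over the members nearest to 0 was thus the IL4 response of the CREBBP pools.

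FNIP2 (chromosome 4, 158769026 to 158908050, plus strand, GRCh38) codes for folliculin interacting protein 2, one of the alternative partners of folliculin. At AAVS baseline it read 0.82, 1.54, 1.05 and 0.382 CPM in lines 1 to 4, and in the AAVS IL4 libraries it read 6.40, 4.57, 15.6 and 3.12 CPM. The 2 groups did not overlap, which held for 2 of 10 members (FNIP2 and TFE3) beside 6.34% of 20310 genes, and each line was higher with IL4. FNIP2 rose by 2.80 on the log2 scale, 6.97-fold (SE 0.41, 95% interval 1.83 to 3.77, edgeR adjusted p = 0.0307). With 0.5 CPM added to each value, the smallest change of a line was 2.48-fold in line 2 and the largest 10.4-fold in line 3. The added 0.5 CPM makes the changes of a gene as low as FNIP2 appear smaller than its CPM values give. In the CREBBP pools it read 0.605, 4.45, 0.669 and 0.200 CPM untreated and 0.337, 2.53, 0.487 and 0.177 CPM after IL4, so that line 2 was the highest of both groups and every line was lower with IL4. Its log2 fold change there was -0.52 (SE 0.39, interval -1.39 to 0.35, edgeR adjusted p = 0.924). The IL4 response of FNIP2 was lower in the CREBBP pools than in the AAVS pools by a log2 difference of -3.22 (SE 0.53, interval -4.39 to -2.05, edgeR adjusted p = 0.0332), in the same direction in 4 of 4 lines. At baseline the CREBBP and AAVS pools differed by 0.00 (SE 0.51, interval -1.13 to 1.14). With 0.5 CPM added, which again makes changes smaller, line 2 was at 2.42-fold and the other lines between 0.756-fold and 0.837-fold. With IL4 the CREBBP pools were lower by -3.42 (SE 0.73, interval -5.12 to -1.72), and the edgeR adjusted p of 0.0728 missed the threshold.

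These values rested on 20 to 63 counts per library at AAVS baseline, 149 to 307 in AAVS IL4 and 11 to 130 in the CREBBP pools. The call for IL4 in the AAVS pools was lost without line 1, 3 or 4 (log2 fold change 2.74, 2.43 and 2.72, edgeR adjusted p = 0.180, 0.0582 and 0.107) and kept without line 2. The call for the difference in response was also lost without line 1, 3 or 4 (-3.10, -2.84 and -3.32, edgeR adjusted p = 0.302, 0.195 and 0.0939). In the AAVS IL4 libraries the order of FNIP2 over the lines, line 3 highest, then 1, 2 and 4, was also the order of IGHM, over 4 libraries. It was the reverse of the order of their totals, at 19649735, 25640336, 33941291 and 47716763 counts in lines 3, 1, 2 and 4. Whether what sets these libraries apart, or their totals, had a part in the FNIP2 change was not tested. Fewer cells that carry a transcript and less of it per cell cannot be told apart in bulk RNA.

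FNIP1 (chromosome 5, 131641714 to 131797017, minus strand), the other partner of folliculin, was the more abundant of the pair in every library. It read 68.7, 60.6, 63.1 and 135 CPM at AAVS baseline and 96.4, 78.0, 124 and 125 CPM in AAVS IL4, with line 4 high in both groups. The log2 fold change was 0.37 (SE 0.19, interval -0.09 to 0.83, edgeR adjusted p = 0.389), with 3 of 4 lines higher. CREBBP pools had 44.8, 94.1, 34.4 and 98.6 CPM untreated and 42.9, 67.4, 57.7 and 90.0 CPM after IL4 (log2 fold change 0.06, interval -0.30 to 0.42). The groups overlapped in all comparisons of FNIP1. With IL4, CREBBP pools were below AAVS pools by CPM in 4 of 4 lines, with line 2 at 0.865-fold. The fitted difference was -0.47 (SE 0.29, edgeR adjusted p = 0.350).

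FLCN (chromosome 17, 17212212 to 17237188, minus strand), the folliculin gene, read 21.3, 20.2, 24.4 and 72.1 CPM at AAVS baseline, so that line 4 stood far above the other lines. With IL4 it read 40.1, 30.6, 59.3 and 43.0 CPM, higher in lines 1 to 3 by 1.498-fold to 2.40-fold and lower in line 4 at 0.599-fold. The fitted log2 fold change was 0.46 (SE 0.31, interval -0.28 to 1.20, edgeR adjusted p = 0.486). The CREBBP pools read 20.6, 28.6, 15.6 and 20.1 CPM untreated and 21.0, 15.8, 20.1 and 38.0 CPM after IL4. In these pools line 2 was lower and line 4 higher with IL4, and the log2 fold change was 0.16 (interval -0.31 to 0.63). With IL4, FLCN was lower by CPM in CREBBP than in AAVS pools in 4 of 4 lines, with line 4 at 0.884-fold. The fitted difference was -0.63 (SE 0.27, interval -1.27 to 0.01, edgeR adjusted p = 0.208).

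TFE3 (chromosome X, 49028726 to 49043410, minus strand) codes for a MiT/TFE factor that shares DNA sites and partners with TFEB. It read 15.43, 18.3, 21.5 and 22.1 CPM at AAVS baseline and 29.9, 24.4, 55.0 and 31.3 CPM in AAVS IL4. The lowest AAVS IL4 library, at 24.4 CPM, lay above the highest of the other 12, at 22.9 CPM. TFE3 was the 1 member of 10 with this lack of overlap, which 4.4% of 21932 genes shared, and the edgeR tests between pairs of groups did not call it. With IL4 in the AAVS pools its log2 fold change was 0.74 (SE 0.19, interval 0.28 to 1.21, edgeR adjusted p = 0.137), with 4 of 4 lines higher by 1.33-fold to 2.52-fold. TFE3 read, in the CREBBP pools, 22.9, 21.7, 14.8 and 15.3 CPM untreated and 21.3, 8.97, 15.01 and 16.3 CPM after IL4, with line 2 at 0.426-fold and the other lines at 0.934-fold to 1.06-fold of baseline. The log2 fold change there was -0.27 (SE 0.18, edgeR adjusted p = 0.924). With IL4 the CREBBP pools were lower in 4 of 4 lines by -0.91 (SE 0.28, interval -1.57 to -0.24, edgeR adjusted p = 0.11). The difference in IL4 response was also -0.91 (SE 0.27, interval -1.49 to -0.32, edgeR adjusted p = 0.183), negative in 4 of 4 lines. DESeq2 called TFE3 in these 3 comparisons with adjusted p = 0.0307, 0.0339 and 0.0267, where it called 10.2%, 21.2% and 5.01% of all genes. When all 16 libraries shared 1 fit, edgeR called TFE3 with IL4 between pools (adjusted p = 0.0214), where 20% of all genes were called. As with FNIP2, line 3 of AAVS IL4 was the highest and also had the highest IGHM. Line 4, the next highest for TFE3 at 31.3 CPM, had the lowest IGHM of that group. The part of what sets these libraries apart in the TFE3 result was not tested.

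TFEB (chromosome 6, 41683978 to 41736259, minus strand), the best known regulator of lysosome genes, read 97.6, 113, 138 and 46.2 CPM at AAVS baseline and 104, 87.2, 81.3 and 65.4 CPM in AAVS IL4. Lines 1 and 4 were higher with IL4 and lines 2 and 3 lower, with a log2 fold change of -0.20 (SE 0.26, interval -0.82 to 0.42, edgeR adjusted p = 0.705). CREBBP pools had 101, 83.5, 78.7 and 47.5 CPM untreated and 109, 37.9, 78.9 and 47.3 CPM after IL4 (log2 fold change -0.21, interval -0.59 to 0.17). Line 4 was the lowest in 3 of the 4 groups, and the 37.9 CPM of line 2 was the one value of the CREBBP pools far from that of the same line untreated. An annotated lncRNA overlaps 115 bases of TFEB exons on the opposite strand, with a median of 8 counts. MITF (chromosome 3, 69739456 to 69968336, plus strand), the melanocyte and mast cell factor of the family, was at or below 1.59 CPM in all libraries and at 0 in line 3 of AAVS IL4. No MITF difference passed a test, and its intervals were the widest of the members (-2.81 to 1.36 for IL4 in the AAVS pools).

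RRAGD (chromosome 6, 89364616 to 89412273, minus strand) codes for RagD, which pairs with RagA or RagB and which, like RagC, is switched by folliculin. At AAVS baseline it read 16.4, 15.5, 11.02 and 17.3 CPM in lines 1 to 4. With IL4 it read 19.4, 54.5, 20.4 and 17.0 CPM, with line 2 far above the others and line 4 level with its baseline. The change per line was 1.17-fold, 3.44-fold, 1.81-fold and 0.984-fold. Fitted over the lines, the log2 fold change was 0.65 (SE 0.34, interval -0.16 to 1.47, edgeR adjusted p = 0.395), which was within the spread between lines, and without line 2 it was 0.25 (edgeR adjusted p = 0.614). In the CREBBP pools RRAGD read 9.81, 30.4, 6.58 and 7.96 CPM untreated and 8.65, 36.3, 8.42 and 9.95 CPM after IL4. Line 2 was again the highest by far, and the log2 fold change with IL4 was 0.24 (SE 0.19, interval -0.18 to 0.66, edgeR adjusted p = 0.924). The difference in IL4 response was -0.31 (SE 0.42, interval -1.24 to 0.62, edgeR adjusted p = 0.791).

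Between pools, RRAGD was lower in the CREBBP pools with IL4 in 4 of 4 lines, at 0.460-fold, 0.669-fold, 0.427-fold and 0.598-fold. The fitted log2 difference was -0.67 (SE 0.28, interval -1.33 to -0.02), with an unadjusted p of 0.0476 from edgeR and an adjusted p of 0.192. At baseline RRAGD was lower in the CREBBP pools of lines 1, 3 and 4 at 0.476-fold to 0.615-fold and higher in line 2 at 1.93-fold. The fitted value was -0.32 (SE 0.32, interval -1.03 to 0.38, edgeR adjusted p = 0.709), and without line 2 it was -0.74 (edgeR adjusted p = 0.136). Line 2 thus set both the size of the IL4 value in the AAVS pools and that of the baseline difference.

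RRAGC (chromosome 1, 38838198 to 38859772, minus strand) codes for RagC, the alternative to RagD in the heterodimer. It read 40.7, 28.2, 29.4 and 46.5 CPM at AAVS baseline and 43.6, 39.3, 41.4 and 45.3 CPM in AAVS IL4, a narrower range than that of any other group. The log2 fold change was 0.20 (SE 0.18, interval -0.24 to 0.63, edgeR adjusted p = 0.594). CREBBP pools had 17.8, 32.6, 14.1 and 24.0 CPM untreated and 17.1, 19.6, 31.3 and 30.7 CPM after IL4. Line 2 was at 0.607-fold and line 3 at 2.18-fold of baseline, and the fitted value was 0.23 (SE 0.20, edgeR adjusted p = 0.924). At baseline RRAGC was lower in the CREBBP pools of lines 1, 3 and 4 at 0.446-fold to 0.520-fold and 1.15-fold in line 2. The fitted difference was -0.66 (SE 0.25, interval -1.20 to -0.11, edgeR adjusted p = 0.339), and without line 2 it was -0.94 with an edgeR adjusted p of 0.0398, where 2.68% of all genes were called. With IL4 it was -0.55 (SE 0.25, edgeR adjusted p = 0.225), lower in 4 of 4 lines, and the CREBBP IL4 libraries lay below all AAVS IL4 libraries. This lack of overlap held for 4 of 10 members (RRAGB, RRAGC, FNIP2 and TFE3), beside 12.9% of 19581 genes.

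The balance between RRAGC and RRAGD was taken as the share of RRAGD in the sum of both, from counts per kilobase of exon. At AAVS baseline the share was 28.9%, 35.5%, 27.3% and 27.1% in lines 1 to 4 (mean 29.7% ± 3.96, SD, n = 4). With IL4 it was 30.9%, 58.2%, 33.1% and 27.3%, so that all lines were higher, line 4 by 0.198 percentage points. The mean difference was 7.67 percentage points (SD 10.3, n = 4, exact two-sided sign-flip p = 0.125, the smallest that 4 lines can give). For the CREBBP pools the share was 35.6%, 48.4%, 32.0% and 25.01% at baseline and 33.6%, 65.1%, 21.3% and 24.6% with IL4, with a mean difference of 0.90 points (SD 11.5, n = 4, exact sign-flip p = 1). The difference in response was -6.77 points (SD 6.83, n = 4, exact sign-flip p = 0.125), negative in all lines. Line 2 had the highest share in every group, and the other lines lay between 21.3% and 35.6%. The size of the share depended on the length used. With the canonical transcript in place of all exons, the share of line 2 was 43.0% in AAVS IL4 and 50.3% in CREBBP IL4, and the mean at AAVS baseline was 18.7% ± 2.93 (SD, n = 4). Which of the pair was the larger part in line 2 of AAVS IL4 thus turned with the length. Between pools the share differed by 5.51 points at baseline (SD 6.17, n = 4, exact sign-flip p = 0.25) and by -1.26 points with IL4 (SD 8.07, n = 4, exact sign-flip p = 0.75).

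**Figure D3:**
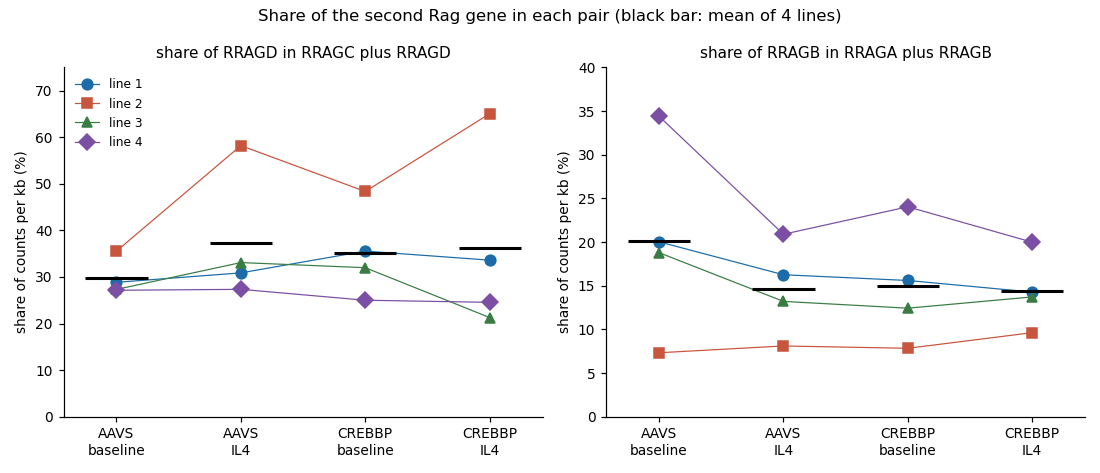
Share of RRAGD in RRAGC plus RRAGD (left) and of RRAGB in RRAGA plus RRAGB (right), in percent of counts per kilobase of exon, by group, with 1 marker per line and a black bar at the mean of the 4 lines. Line 2 has the highest RRAGD share in each group, up to 65.1% in CREBBP IL4, and the lowest RRAGB share, down to 7.32% at AAVS baseline.

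RRAGA (chromosome 9, 19049427 to 19051025, plus strand), which codes for RagA and has a single exon, read 13.0, 30.0, 13.2 and 10.3 CPM at AAVS baseline and 20.9, 33.7, 27.6 and 19.1 CPM in AAVS IL4. It was higher with IL4 in 4 of 4 lines, from 1.12-fold in line 2 to 2.05-fold in line 3. This was a log2 fold change of 0.64 (SE 0.20, interval 0.15 to 1.12), with an unadjusted p of 0.0180 from edgeR and an adjusted p of 0.213. RRAGA read, in the CREBBP pools, 15.5, 31.3, 14.2 and 10.4 CPM untreated and 15.7, 25.6, 13.4 and 10.5 CPM after IL4, with line 2 at 0.819-fold and the other lines at 0.943-fold to 1.01-fold of baseline. The log2 fold change there was -0.04 (SE 0.16, interval -0.41 to 0.32), and the difference in response was -0.57 (SE 0.26, interval -1.15 to 0.01, edgeR adjusted p = 0.381), negative in 4 of 4 lines. Line 2 was the highest in each of the 4 groups.

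RRAGB (chromosome X, 55717749 to 55758774, plus strand), which codes for RagB, read 5.52, 4.02, 5.19 and 9.20 CPM at AAVS baseline and 6.90, 5.04, 7.12 and 8.57 CPM in AAVS IL4 (log2 fold change 0.19, SE 0.26, edgeR adjusted p = 0.719). The CREBBP pools read 4.87, 4.52, 3.43 and 5.61 CPM untreated and 4.43, 4.62, 3.62 and 4.45 CPM after IL4 (log2 fold change -0.05, SE 0.25, edgeR adjusted p = 0.984). By CPM the CREBBP IL4 libraries lay below all AAVS IL4 libraries, with line 2 at 0.925-fold. The fitted difference was -0.40 (SE 0.38, edgeR adjusted p = 0.536), which was within the spread between lines. RRAGB made up 20.1% ± 11.1 (SD, n = 4) of RRAGA plus RRAGB at AAVS baseline, 14.6% ± 5.37 in AAVS IL4, 14.97% ± 6.83 at CREBBP baseline and 14.4% ± 4.26 in CREBBP IL4. The difference in response of this share was 2.44, 1.01, 6.88 and 9.46 percentage points in lines 1 to 4, positive in 4 of 4 lines (mean 4.95, SD 3.91, n = 4, exact sign-flip p = 0.125, the smallest that 4 lines can give). For the other 4 comparisons the exact sign-flip p ranged from 0.25 to 0.875 (n = 4 lines), and with 4 lines no comparison could have passed 0.05.

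The 74 other genes of the pathway, in 10 lists, gave few calls. With IL4 in the AAVS pools 2 genes rose and 0 fell, and both belonged to the 20 lysosomal CLEAR genes. SGSH, which codes for a lysosomal heparan sulfate sulfamidase, read 2.37, 1.03, 2.38 and 0.286 CPM at AAVS baseline and 23.4, 8.49, 50.7 and 14.8 CPM in AAVS IL4, above each of the other 12 libraries. It rose by 3.98 on the log2 scale (SE 0.44, edgeR adjusted p = 0.0170). SQSTM1, the autophagy receptor p62, read 95.7, 92.8, 212 and 46.8 CPM untreated and 237, 219, 430 and 165 CPM after IL4, and rose by 1.28 (SE 0.21, edgeR adjusted p = 0.0404). Without line 1 neither call held (SGSH 4.24, edgeR adjusted p = 0.0763, and SQSTM1 1.27, edgeR adjusted p = 0.274), and that of SQSTM1 was also lost without line 2 or line 4 (1.26 and 1.11, edgeR adjusted p = 0.0654 and 0.119). Among the pathway genes SGSH was also the one call with IL4 between pools, lower in CREBBP pools (-4.22, SE 0.66, edgeR adjusted p = 0.0379), and the one call in the difference in response (-3.47, SE 0.57, edgeR adjusted p = 0.0332). The first of these was lost without line 1, 3 or 4 (-4.56, -3.58 and -3.73) and the second without line 1 or 3 (-3.75 and -3.37). SGSH exons overlap CARD14 over 230 bases and SLC26A11 over 8 bases on the opposite strand, and SQSTM1 exons overlap MRNIP over 1582 bases and MGAT4B over 105 bases on the opposite strand. The methods name a stranded library kit, and whether the counting used strand was not given in the sources used here. Without it, reads within these overlaps could not be assigned to one gene of a pair. The median counts per library were 2 for CARD14, 64 for SLC26A11, 1017 for MRNIP and 1276 for MGAT4B.

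The counts called were 2 of 74 (2.7%) beside 2.4% of all genes for IL4 in the AAVS pools, 1 of 74 (1.35%) beside 4.39% with IL4 between pools, and 1 of 74 beside 0.638% for the difference in response. With IL4 in the CREBBP pools and at baseline between pools edgeR called 0 of 74, with 3 and 10 genes at an unadjusted p under 0.05. DESeq2 called 0 and 2 there, beside 0.00547% and 2.7% of all genes, and limma-voom called 0 in both. Of the lysosomal CLEAR genes 10 of 20 lay above 0 with IL4 in the AAVS pools, with a median log2 fold change of -0.09, so the list as a whole had no common direction. All 5 Ragulator genes (median -0.26), all 5 mTORC1 core genes (median -0.39) and all 3 GATOR1 genes (median -0.22) lay below 0 there. All 4 Rag genes lay above 0, and none of these genes was called. Of all 74 pathway genes 51 lay below 0 (median -0.16), whereas 51% of all genes tested lay above 0.

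**Figure D4:**
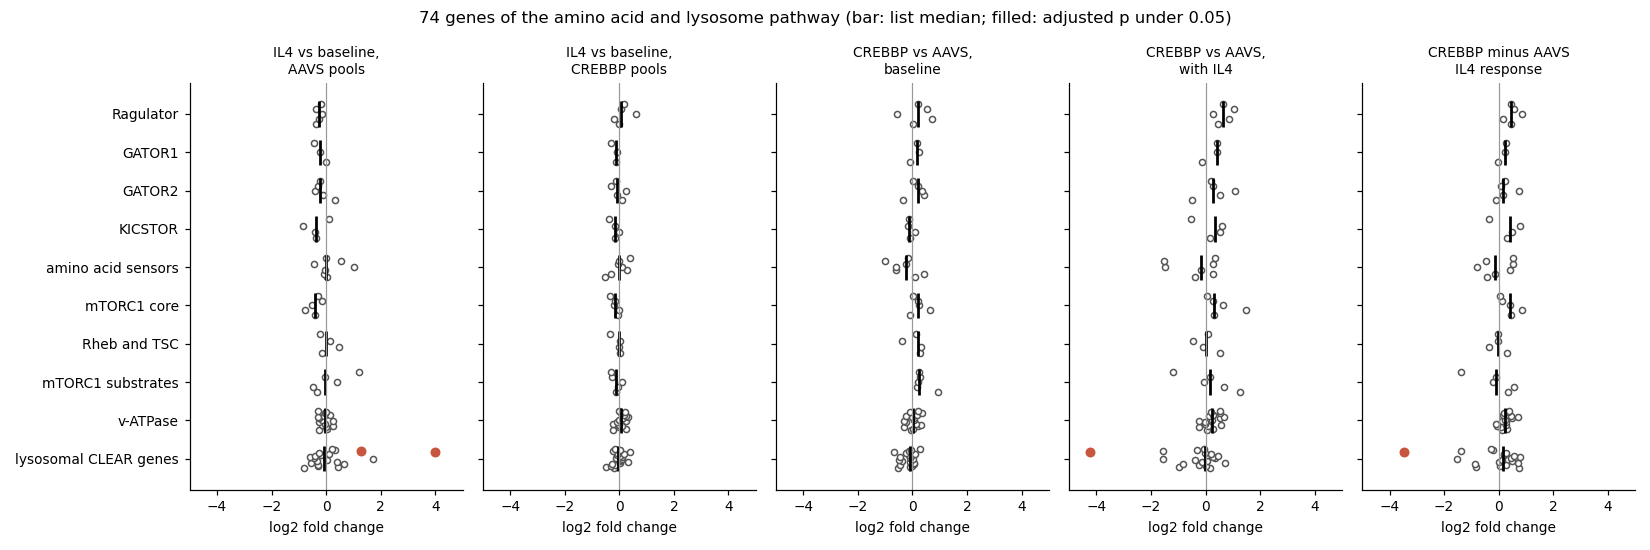
Fitted log2 fold changes (horizontal axis) of 74 genes in 10 pathway lists (rows) in the 5 comparisons, with 1 circle per gene and a black bar at the list median. Filled circles, with an adjusted p under 0.05, are SGSH and SQSTM1 in the first panel and SGSH in the last pair of panels, and the list medians lie between -0.39 and 0.63.

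In each of the 9 lists without a call, the gene with the largest change in the AAVS IL4 comparison was as follows, and none passed the test in any comparison. ULK1, the kinase that starts autophagy and a substrate of mTORC1, had a log2 fold change of 1.18 (SE 0.31, edgeR adjusted p = 0.149), and its difference in response was -1.39 (SE 0.40, edgeR adjusted p = 0.177). SESN1, a sestrin of the amino acid sensors, had 1.01 (SE 0.41), and TBC1D7, the third subunit of the TSC complex, had 0.46 (SE 0.24). Values below 0 were those of KPTN of KICSTOR (-0.85, SE 0.39), DEPTOR, an inhibitor bound to mTOR (-0.76, SE 0.53), NPRL3 of GATOR1 (-0.46, SE 0.28), SEH1L of GATOR2 (-0.41, SE 0.26), LAMTOR4 of the Ragulator (-0.38, SE 0.24) and ATP6V1C1 of the v-ATPase (-0.31, SE 0.16). Their edgeR adjusted p-values in that comparison ranged from 0.149 for ULK1 to 0.519 for DEPTOR.

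The members also differed in what their variation followed. Of the sum of squares of log2 CPM over the 16 libraries, the line took 68.4% for RRAGA, 62.9% for MITF, 54.1% for RRAGD and 53.4% for TFEB. The group took 61.3% for FNIP2, 59.8% for TFE3 and 59.8% for RRAGC, and 45.0% for RRAGB. FLCN and FNIP1 were spread over line (22.3% and 38.5%), group (39.0% and 29.8%) and the rest (38.7% and 31.7%). These shares are a description with no test. RRAGD had mean levels of 13.6, 34.2, 11.6 and 13.0 CPM in lines 1 to 4, and RRAGA of 16.3, 30.1, 17.1 and 12.6 CPM, so that line 2 was the highest for both, while for FLCN and FNIP1 it was line 4 (43.3 and 112 CPM).

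The genes outside the family whose levels followed RRAGD most closely, by Pearson's r of line-centred log2 CPM over 16 libraries and 21932 genes, were RGS1 (0.981), CREBRF (0.978), YPEL5 (0.968), SLC26A11 (0.953), whose exons overlap those of SGSH, and DUSP10 (0.946). These libraries share lines and groups, so the values are a description. In the AAVS IL4 libraries RGS1 lay between 153 and 641 CPM, and in the other 12 between 2.75 and 170 CPM. Among the members the closest to RRAGD were RRAGB (0.830) and FNIP1 (0.806), the least similar was MITF (-0.602), and TFEB had -0.131. FNIP2 was closest to RRAGA (0.898), and RRAGA and TFE3 had a value of 0.869.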

How the data were processed

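The authors sequenced RNA of 4 lymphoma lines as 16 libraries. Per the labels and the methods, reads were trimmed with cutadapt 2.3, mapped to GRCh38 with STAR 2.7.8a and assigned to genes with RSEM 1.3.3, and the authors deposited estimated counts as whole numbers, not normalized. All later steps used edgeR 4.0.16, DESeq2 1.42.0 and limma 3.58.1 in R 4.3.3, and matplotlib 3.10.9, pandas 2.3.3 and numpy 2.4.6 in Python 3.11.15.

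Genes were kept by filterByExpr, normalized by TMM and compared by the quasi-likelihood test of edgeR, in which line was a blocking factor, and p-values were Benjamini-Hochberg adjusted over all genes tested. SE and 95% intervals came from the fitted dispersions. Fold changes of a single line used log2(CPM + 0.5), with CPM from library totals and no TMM factors. Shares of Rag genes were compared by an exact two-sided sign-flip test over lines. Positions and exon lengths were from GENCODE 44. Of the 62714 genes listed, 20930 had no symbol. The tests were tested on simulated data with 200 changed genes.

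The line pairs the libraries because libraries of a number come from the same cell line by their labels. Correlations between different lines are not given here for comparison. Deviations from the group means had median correlations of 0.409, 0.685, 0.227 and 0.596 within lines 1 to 4 (lowest -0.0782, in line 3). No pair of libraries in a group was a copy (chi-square per degree of freedom at least 98.7).

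The members and the pathway lists were chosen with earlier results of these data known. Named were all members, the called pathway genes (up to 10 per comparison), in a list without a call the gene with the largest change with IL4 in the AAVS pools, the targeted gene, the IL4 targets CISH, NFIL3 and FCER2, 4 transcripts that set AAVS IL4 apart and the 5 genes most like RRAGD. Alternatives were DESeq2 or upper-quartile factors, a filter of at least 10 counts in every library or none, a fit with no block, leaving out each line, DESeq2, limma-voom and all 16 libraries in 1 fit. Summing lines 1, 3 and 4 as 1 line and the canonical transcript length were added after seeing the data. RefSeq promoter windows were searched for CACGTG, which reads the same on both strands. Counting intervals are not given, since the tests rest on the spread of the differences over the lines.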

Additional observations from a re-analysis of the deposited data

Results flagged for a closer look

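FNIP2 responded to IL4 differently in the 2 kinds of pools, by the test of the difference itself. The log2 difference of the responses was -3.22 (edgeR adjusted p = 0.0332), negative in 4 of 4 lines, and the AAVS IL4 libraries that carry it also stand apart by IGHM, CD44 and T-cell genes, whose part in it was not tested.

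In 8 of 40 sets of 4 libraries (10 members in 4 groups), 1 library lay far above the other 3. The cut-off used is met by about 1 in 20 sets of independent, normally distributed values. These sets share lines and were taken as CPM without a log, and the share over all genes was not taken. The count is therefore a description. RRAGD was high in line 2 in AAVS IL4 (54.5 CPM, the others 17.0 to 20.4), at CREBBP baseline (30.4 CPM, the others 6.58 to 9.81) and in CREBBP IL4 (36.3 CPM, the others 8.42 to 9.95). RRAGA was high in line 2 at AAVS baseline (30.0 CPM, the others 10.3 to 13.2). FNIP2 was high in line 2 at CREBBP baseline (4.45 CPM, the others 0.200 to 0.669) and in CREBBP IL4 (2.53 CPM, the others 0.177 to 0.487). At AAVS baseline, FLCN (72.1 CPM, the others 20.2 to 24.4) and FNIP1 (135 CPM, the others 60.6 to 68.7) were high in line 4. Of these 8 values, 6 came from line 2, the line that also differed most from the others in the genes it expresses.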

How the results depend on the processing

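Over 10 members and 5 comparisons, 581 of 634 log2 fold changes under the alternatives kept both direction and side of the threshold, 31 changed sign, 11 lost a call and 11 gained one. None of the values that changed sign had passed the test. With each line left out, the sign changed for IL4 in the CREBBP pools in RRAGA (-0.12 to 0.069), RRAGB (-0.23 to 0.073), FLCN (-0.070 to 0.34), FNIP1 (-0.065 to 0.15) and MITF (-0.057 to 0.49). At baseline between pools it changed in FLCN (-0.71 to 0.049), FNIP2 (-0.53 to 0.28) and TFE3 (-0.15 to 0.21), with IL4 between pools in TFEB (-0.25 to 0.062), and in the difference in response in RRAGC (-0.065 to 0.31), FLCN (-0.91 to 0.034) and TFEB (-0.15 to 0.18).

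Without the line as a block, pairing was lost and the FNIP2 values were 2.88 for IL4 in the AAVS pools (edgeR adjusted p = 0.0581) and -3.19 for the difference in response (edgeR adjusted p = 0.903), so that 0 members were called in either, with 1 pathway gene in the first and 0 in the second. Of all genes, 2.3% were called in the first and 0.00912% in the second. The sign also changed without the block for IL4 in MITF in the AAVS pools (0.16) and in RRAGA in the CREBBP pools (0.0093).

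With lines 1, 3 and 4 summed as 1 line, a choice made after seeing the data that leaves fewer samples, FNIP2 had 2.27 and -2.78 in these comparisons (edgeR adjusted p = 0.260 and 0.484), with 0 members and 0 pathway genes called in every comparison. The share of all genes called ranged from 0% for IL4 in the CREBBP pools to 1.86% with IL4 between pools. Signs changed for IL4 in the CREBBP pools in RRAGA (0.070) and RRAGB (0.16), at baseline in RRAGD (0.10) and FNIP1 (0.13), and in the difference in response in RRAGC (-0.16).

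Leaving out each line moved the number of members called between 0 and 1 for IL4 in the AAVS pools, at baseline (RRAGC without line 2, where 2.68% of all genes were called), with IL4 between pools and in the difference in response. The number of pathway genes called lay between 0 and 2, 0 and 1, 0 and 6, and 0 and 2 in the same comparisons. The share of all genes called there lay between 0.31% and 4.93%, 0% and 2.68%, 0.124% and 12.4%, and 0.0724% and 1.19%. FNIP2 lay between 2.43 and 3.18 for IL4 in the AAVS pools, between -4.25 and -2.84 with IL4 between pools, where it was called without line 2 (edgeR adjusted p = 0.003, beside 12.4% of all genes), and between -3.79 and -2.84 in the difference.

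With at least 10 counts in every library, FNIP2 had 2.80 for IL4 in the AAVS pools (edgeR adjusted p = 0.0695), with 0 members and 1 pathway gene called, beside 0.174% of all genes. With IL4 between pools it had -3.48 (edgeR adjusted p = 0.0474), with 1 member and 2 pathway genes called, beside 5.02% of all genes. RRAGC (-0.038) and TFEB (-0.079) changed sign in the difference. With no filter FNIP2 was called with IL4 between pools (-3.36, edgeR adjusted p = 0.000332) as 1 member beside 8 pathway genes and 9.34% of all genes. There, 2 pathway genes were called at baseline, beside 1.63% of all genes, and 3 in the difference, beside 3%. FNIP2 (-0.049) and TFE3 (-0.0075) changed sign at baseline. Upper-quartile factors moved the members by a median of -0.21 with IL4 between pools and -0.16 in the difference, and called 2 pathway genes in the difference, beside 0.784% of all genes. They changed the sign of FNIP2 (-0.081) and TFE3 (-0.043) at baseline and of RRAGC (-0.022) and TFEB (-0.062) in the difference. DESeq2 factors in edgeR called 2 pathway genes in the difference, beside 0.643% of all genes.

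Among other tools, DESeq2 called 2 members for IL4 in the AAVS pools, with IL4 between pools (FNIP2 -3.47, DESeq2 adjusted p = 5.77e-05) and in the difference, with 5, 13 and 3 pathway genes, and 2 pathway genes at baseline, beside 10.2%, 21.2%, 5.01% and 2.7% of all genes. limma-voom called FNIP2 with IL4 between pools (-3.01, limma adjusted p = 0.0406) as 1 member beside 5 pathway genes and 10.4% of all genes, and 2 pathway genes in the difference, beside 2.68%. With IL4 between pools, all 16 libraries in 1 fit called 2 members (FNIP2 -3.42, edgeR adjusted p = 0.00364) and 15 pathway genes, beside 20% of all genes. This fit changed the sign of RRAGB for IL4 in the CREBBP pools (0.033). The causes of these changes were not tested. FNIP2 and MITF had the fewest counts, at 11 to 307 and 0 to 79 per library.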
